A study of Mus musculus with 16 samples.

Results

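Matrix metalloproteinases, written MMPs here, and their tissue inhibitors, the TIMPs, were followed across mammary tumours and normal mammary glands of mice. The group comprised 10 genes. They were the collagenase gene Mmp13, the stromelysin genes Mmp3 and Mmp11, the gelatinase genes Mmp2 and Mmp9, the elastase gene Mmp12, the membrane-anchored protease gene Mmp14 and the inhibitor genes Timp1, Timp2 and Timp3. The members were all probe sets that the annotation of the array gives to 1 of these genes alone, 21 of the 22690 probe sets on the array. Timp2 had 6 probe sets, Timp3 had 4, Mmp2, Mmp9 and Mmp14 had 2 each, and the other genes had 1 each.

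MMPs are zinc-dependent proteases that cut collagens, laminins, elastin and other proteins of the extracellular matrix, and that also release growth factors held there. Most are secreted as inactive proenzymes, often by fibroblasts and leukocytes of the stroma, and are switched on by removal of a propeptide. TIMPs bind the active site and block it. In the mammary gland the balance of MMPs and TIMPs is known for its part in duct growth and in the remodelling after weaning, and in mammary tumours for breakdown of the basement membrane.

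The study hybridised RNA from 16 tissues to Affymetrix Mouse Genome 430A 2.0 arrays. The 7 STAT5ca arrays held mammary tumours from mice with a transgene for constitutively active STAT5. The 6 STAT5Δ750 arrays held mammary tumours from mice with a transgene for STAT5 that lacks part of its C-terminus. The 3 gland arrays held normal mammary gland. All mice had the FVB/N background. STAT5 is a transcription factor activated by prolactin, among other signals. The promoter that drives each transgene, the age of the mice, the histology of the tumours and the reproductive stage of the glands are not given in the labels used here. Nor do the labels say whether each array came from a separate animal, so the p-values measure only the spread between these samples. Values are signals, a linear brightness per probe set in arbitrary units, scaled here so that all arrays share a median of 75.9. In bulk tissue, more RNA per cell and more cells of a type cannot be told apart.

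Some facts of the whole set bear on the members. The deposited array medians ran from 57.3 to 90.7, and the number of arrays limits the precision. The beta-actin control, read as its 3' over its 5' signal, is a sign of RNA quality and gave ratios of 1.76 to 5.38 in STAT5ca tumours and 1.27 to 3.52 in STAT5Δ750 tumours, against 1.07 to 1.25 in glands, so every tumour lay above every gland. The Gapdh control, read the same way, did not set the tumours apart. Its ratios were 0.791 to 1.71 in STAT5ca and 0.757 to 0.864 in STAT5Δ750 tumours, against 0.841 to 1.03 in glands. The array of tumour STAT5ca_177 stood apart from its group, with a mean correlation of 0.713 with the other STAT5ca arrays, which had 0.822 to 0.871. Its signal for Krt8, a keratin that defines luminal epithelium, was 33.5 on probe set 1420647_a_at, against 4020.1 to 6182 on the rest of the group. That signal also lay below all 3 glands, so STAT5ca_177 was unlike the other tumours in this marker, and its histology is not given. The summed signal of 15 macrophage markers was 75565 on STAT5ca_177 and 7050.1 to 18065 on the other STAT5ca arrays. Main results that rest on STAT5ca_177 are given without it as well. The tissues also differed in makeup. The summed signal of 12 skeletal muscle markers was 192.7 to 12262 in STAT5ca and 436 to 23732 in STAT5Δ750 tumours, against 64358 to 80603 in glands, and 12 and 11 of them fell. Of 9 adipocyte markers 8 fell in each tumour group. The sum of 14 luminal epithelium markers was 25783 to 42006 in STAT5ca tumours other than STAT5ca_177, which had 1123, and 19609 to 36332 in STAT5Δ750 tumours, against 5188 to 11565 in glands. The part of this makeup in the results on MMPs and TIMPs was not tested. Stat5a, which stands for the transgenes only as far as its probe sets read them, had 99.1 to 789.8 in STAT5ca tumours and 104 to 585 in STAT5Δ750 tumours, against 386 to 572 in glands, on probe set 1421469_a_at.

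The genes Mmp13, Mmp12 and Mmp3 lie in a cluster of 10 MMP genes at chr9:7272514-7699585 of mouse build GRCm38.p6, and Timp1 lies on chromosome X. RefSeq promoter windows of that build, 250 bases before to 50 after the start of a gene, covered 8 of the 10 genes in 9 windows, and Mmp2 and Mmp9 have no window in the table. The last 200 bases of 4 windows are shown because they hold the binding motif of AP-1, the Fos and Jun dimer known to drive several MMP genes, or a variant of it, and because Mmp13 and Timp1 are the genes on which the comparisons below turn. Sequences run 5' to 3' on the plus strand, and capitals mark the match.
Mmp13, chr9:7272364-7272563: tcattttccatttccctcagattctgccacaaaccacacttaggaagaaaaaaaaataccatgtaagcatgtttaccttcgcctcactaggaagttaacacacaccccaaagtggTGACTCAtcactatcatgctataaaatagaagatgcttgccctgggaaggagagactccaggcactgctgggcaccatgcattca
Mmp3, chr9:7445672-7445871: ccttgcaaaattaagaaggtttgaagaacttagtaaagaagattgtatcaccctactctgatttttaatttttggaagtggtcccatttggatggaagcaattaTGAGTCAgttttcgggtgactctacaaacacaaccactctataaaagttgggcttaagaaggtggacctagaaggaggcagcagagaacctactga
Mmp12, chr9:7347224-7347423: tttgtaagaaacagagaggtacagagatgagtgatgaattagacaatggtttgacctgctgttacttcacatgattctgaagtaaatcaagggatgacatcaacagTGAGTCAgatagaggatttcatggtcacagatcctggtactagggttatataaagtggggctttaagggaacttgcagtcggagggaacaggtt
Timp1, chrX:20870016-20870215: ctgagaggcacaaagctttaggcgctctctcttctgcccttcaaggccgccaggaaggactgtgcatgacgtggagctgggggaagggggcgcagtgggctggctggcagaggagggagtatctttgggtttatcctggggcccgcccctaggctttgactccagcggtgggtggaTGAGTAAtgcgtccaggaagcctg
The AP-1 motif was searched as TGANTCA, which reads the same on both strands. It was found in 3 of the 8 genes, beginning 35 bases before the start in Mmp13, 46 in Mmp3 and 44 in the second window of Mmp12, and 7.81% of all 32851 windows hold it. The variant TGAGTAA, searched also as TTACTCA, began 26 bases after the start in Timp1, and 2.68% of all windows hold it. The general STAT motif TTCNNNGAA was found in 0 of the 8 genes, and 8.30% of all windows hold it. These are matches of letters, and binding was not measured.

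The comparison of each tumour group with gland asked which proteases and inhibitors differ between tumour and normal tissue. Mmp13 and Timp1 rose in both tumour groups, and no member fell. Of the 21 probe sets, 19 passed the filter on low signals, a deposited signal above 35.4 on at least 3 arrays. A probe set of Mmp14, 1416572_at, was above it on 1 array and a probe set of Timp2, 1437081_at, on 0. By limma with Benjamini-Hochberg adjustment over all 15764 probe sets that passed, 2 of the 19 were higher in STAT5ca tumours at an adjusted p under 0.05, beside 13% of all probe sets, and 0 were lower, beside 7.80%. In STAT5Δ750 tumours 2 of the 19 were higher, beside 9.78% of all, and 0 were lower, beside 8.49%. The groups did not overlap for 2 probe sets higher and 0 lower in STAT5ca tumours, beside 13.8% and 6.80% of all, and for 2 higher and 1 lower in STAT5Δ750 tumours, beside 19.0% and 12.5%. The 2 of 19 are 10.5%, a share near the background in both comparisons. Both groups were set against the same 3 glands. The median of the 19 differences was 0.27 in STAT5ca and 0.40 in STAT5Δ750 tumours on the log2 scale, against medians of 0.28 and 0.17 over all probe sets.

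**Figure D1:**
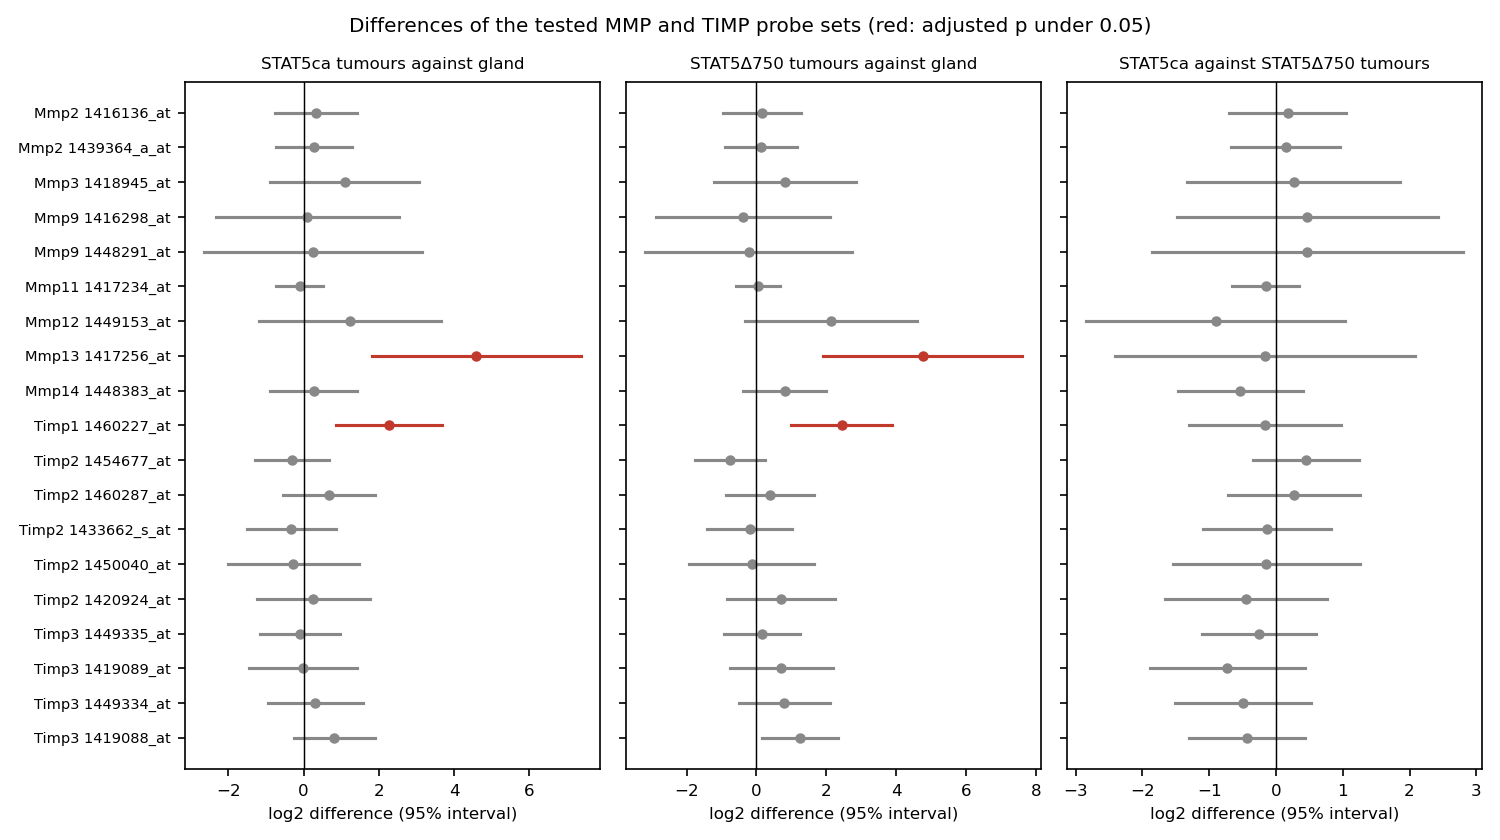
Difference of each of the 19 tested MMP and TIMP probe sets on the log2 scale (horizontal axis, with 95% intervals) for, from left to right, STAT5ca tumours and then STAT5Δ750 tumours set against gland, and the 2 tumour groups set against each other, each panel with its own scale. The intervals of Mmp13 and Timp1, drawn in red for an adjusted p under 0.05, lie above 0 in both comparisons with gland, and no interval between the tumour groups excludes 0. The interval of Timp3 1419088_at in STAT5Δ750 tumours against gland, 0.15 to 2.35, also lies above 0, with a limma adjusted p of 0.105.

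Mmp13 encodes collagenase 3, which cuts fibrillar collagens and is the chief interstitial collagenase of mice. Its signal had a lowest value of 17.8, a median of 459 and a highest of 3864 in STAT5ca tumours, and of 39.5, 427 and 1276 in STAT5Δ750 tumours, against 6.02, 3.74 and 1.67 on glands 1, 4 and 6. All 13 tumours were above all 3 glands, and the lowest tumours, STAT5ca_169 and STAT5ca_123 with 23.7, stood far below the rest of their group. The rise was 4.60 ± 1.31 in STAT5ca tumours (log2 difference ± SE, 7 against 3 arrays, limma adjusted p = 0.0215) and 4.76 ± 1.35 in STAT5Δ750 tumours (6 against 3 arrays, adjusted p = 0.0224). The gland signals lie below 7.9, the offset added before log2, so the size of the difference is set in part by that offset, and the gene passed the filter through the tumours alone. With an offset of 1 the differences were 5.84 and 6.07, and with an offset of 35.4 they were 3.18 (adjusted p = 0.0532) and 3.21 (adjusted p = 0.0620). Without STAT5ca_177 the rise in STAT5ca tumours was 3.96 ± 1.16 (adjusted p = 0.0185). Leaving out gland 1, 4 or 6 gave adjusted p of 0.0686, 0.0747 and 0.0778 in STAT5ca and of 0.0704, 0.0841 and 0.0736 in STAT5Δ750 tumours. With the beta-actin ratio as a covariate the differences were 3.87 (adjusted p = 0.189) and 4.32 (adjusted p = 0.0662). Every tumour had a higher ratio than every gland, so this fit, here and below, cannot tell RNA quality and tumour state apart.

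Mmp3 encodes stromelysin 1, which cuts many matrix proteins and activates other MMPs, collagenases among them. The signal had a lowest value of 32.4, a median of 545 and a highest of 1809 in STAT5ca tumours, and of 155, 238 and 437 in STAT5Δ750 tumours, against 176, 115 and 145 on glands 1, 4 and 6. The STAT5ca tumours lay on both sides of the glands, with 5 above all of them and 2, STAT5ca_123 and STAT5ca_169, below all. In STAT5Δ750 tumours 5 of 6 were above all glands. The differences, 1.09 ± 0.93 in STAT5ca (adjusted p = 0.432) and 0.82 ± 0.96 in STAT5Δ750 tumours (adjusted p = 0.579), did not pass. The SD of Mmp3 over STAT5ca tumours was 2.13 on the log2 scale, against 0.29 over glands. Mmp11 encodes stromelysin 3, a protease of tumour stroma that is activated inside the cell. It was faint, at 17.7 to 66.5 in STAT5ca and 23.9 to 48.4 in STAT5Δ750 tumours, against 29.3 to 39.6 in glands. Its differences were -0.11 ± 0.29 and 0.04 ± 0.30, the narrowest intervals of the 19 probe sets, at -0.73 to 0.51 and -0.60 to 0.68.

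Mmp2 and Mmp9 encode the gelatinases, which cut denatured collagen and the type IV collagen of basement membranes. Mmp2 had a lowest value of 156, a median of 485 and a highest of 1080.1 in STAT5ca tumours, and of 237, 339 and 731 in STAT5Δ750 tumours, against 386, 294 and 272 on glands 1, 4 and 6. The groups overlapped, with differences of 0.34 ± 0.52 (adjusted p = 0.674) and 0.16 ± 0.53 (adjusted p = 0.858). Both Mmp2 probe sets gave the same order of arrays closely, with a correlation of 0.992 over 16 arrays.

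Mmp9 was high on 1 array. On probe set 1416298_at the STAT5ca tumours had a lowest value of 12.1, a median of 56.2 and a highest of 4969.8, the last on STAT5ca_177, and the STAT5Δ750 tumours had 40.2, 62.5 and 86.5, against 108, 75.6 and 70.1 on glands 1, 4 and 6. The other 6 STAT5ca tumours reached at most 150.3. Probe set 1448291_at read 5529.8 on STAT5ca_177 and 1.17 to 111 on the other STAT5ca tumours. The difference from gland was 0.10 ± 1.15 in STAT5ca tumours (adjusted p = 0.959), and -0.85 ± 0.47 without STAT5ca_177 (adjusted p = 0.196), and the sign turned without that 1 tumour. In STAT5Δ750 tumours the difference on 1416298_at was -0.37 ± 1.18 (adjusted p = 0.852), and 5 of 6 lay below all glands. On 1448291_at it was -0.22 ± 1.40 (adjusted p = 0.930), with 1 of 6 below and 1 above all glands. The part of macrophages, whose markers were also highest on STAT5ca_177, was not tested for Mmp9 beyond the relation across tumours given below.

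Mmp12 encodes the elastase of macrophages. Its signal had a lowest value of 11.3, a median of 173 and a highest of 3559 in STAT5ca tumours, and of 109, 350.1 and 1396 in STAT5Δ750 tumours, against 89.5, 43.6 and 154 on glands 1, 4 and 6. In STAT5Δ750 tumours 5 of 6 were above all glands, and STAT5Δ750_92 was not. The differences were 1.24 ± 1.14 (adjusted p = 0.467) in STAT5ca and 2.14 ± 1.16 (adjusted p = 0.213, 95% interval -0.33 to 4.60) in STAT5Δ750 tumours. The call depends on how the spread is estimated. With only the 6 tumours and 3 glands in the model the difference passed (2.14 ± 0.70, adjusted p = 0.0440), and with array quality weights it was 2.28 ± 0.64 (adjusted p = 0.00844). Both of these fits also called many more of all probe sets than the main model, with counts given in the last section. Of 15 macrophage markers 0 were called in STAT5Δ750 tumours. Their summed signal was 6777 to 18344 there, against 12589 to 13952 in glands, with no marker at 0. The part of macrophages in the Mmp12 signal was not tested beyond the relation across tumours given below.

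Mmp14 encodes a protease anchored in the cell membrane that cuts collagen and activates the Mmp2 proenzyme. The brighter probe set, 1448383_at, had a lowest value of 11.0, a median of 24.1 and a highest of 97.1 in STAT5ca tumours, and of 22.0, 45.1 and 207 in STAT5Δ750 tumours, against 21.4, 25.0 and 34.2 on glands 1, 4 and 6. Signals were low, above the filter on 3 of 7 STAT5ca, 4 of 6 STAT5Δ750 and 1 of 3 gland arrays, with STAT5Δ750_160 the highest. The differences were 0.27 ± 0.55 (adjusted p = 0.758) and 0.81 ± 0.56 (adjusted p = 0.333).

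**Figure D2:**
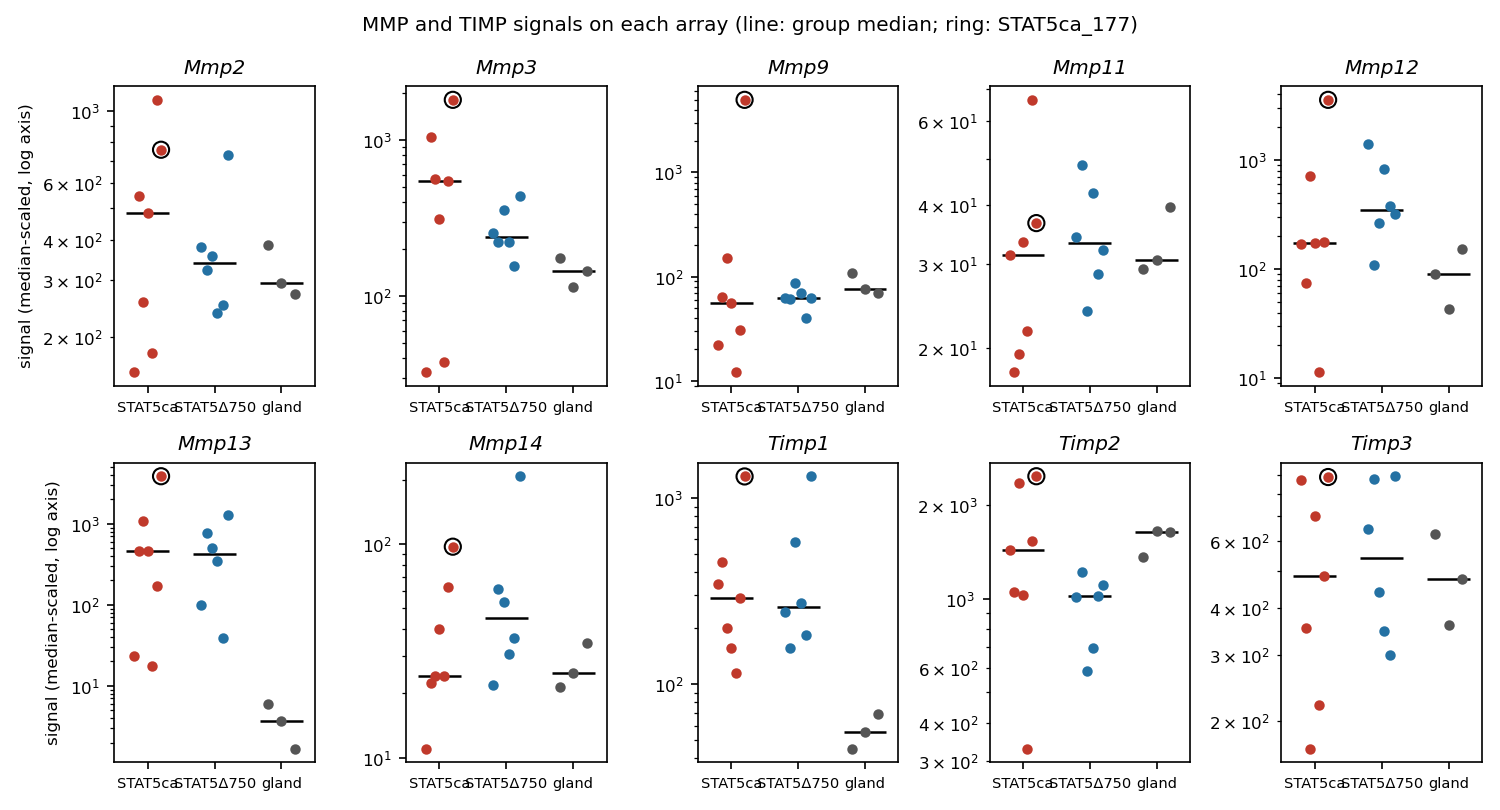
Signal of each gene on each array (vertical axis, logarithmic, arrays scaled to a common median), with STAT5ca tumours, STAT5Δ750 tumours and glands from left to right, from the probe set of each gene with the highest mean. Points are arrays, lines are group medians and a ring marks STAT5ca_177. All 13 tumours lie above all 3 glands for Mmp13 and Timp1, and Mmp9 reaches 4969.8 on the ringed array alone.

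Timp1 encodes a secreted inhibitor of most MMPs, which many cells make in response to cytokines and injury. Its signal had a lowest value of 115, a median of 292 and a highest of 1305 in STAT5ca tumours, and of 157, 259.7 and 1308 in STAT5Δ750 tumours, against 45.1, 55.3 and 68.9 on glands 1, 4 and 6. The groups did not overlap, and the highest tumour of each group, STAT5ca_177 and STAT5Δ750_160, stood well above the rest. Timp1 rose by 2.28 ± 0.67 in STAT5ca tumours (limma adjusted p = 0.0238) and by 2.45 ± 0.68 in STAT5Δ750 tumours (adjusted p = 0.0206). On the log2 scale with its offset these are rises of 4.86-fold and 5.45-fold. Without STAT5ca_177 the rise in STAT5ca tumours was 1.93 ± 0.56 (adjusted p = 0.0183). Leaving out gland 1, 4 or 6 gave adjusted p of 0.0986, 0.0815 and 0.0607 in STAT5ca and of 0.0878, 0.0807 and 0.0498 in STAT5Δ750 tumours. With the beta-actin ratio as a covariate the adjusted p was 0.0899 in STAT5ca tumours and 0.0331 in STAT5Δ750 tumours.

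Timp2 encodes an inhibitor that also joins Mmp14 in the complex that activates the Mmp2 proenzyme. On its brightest probe set, 1454677_at, the STAT5ca tumours had a lowest value of 329, a median of 1438 and a highest of 2483, and the STAT5Δ750 tumours had 586, 1018 and 1222, against 1368, 1658 and 1638 on glands 1, 4 and 6. All 6 STAT5Δ750 tumours were below all glands, as were 12.5% of all probe sets, yet the difference, -0.76 ± 0.48, did not pass (adjusted p = 0.281). In STAT5ca tumours it was -0.31 ± 0.46 (adjusted p = 0.666). The probe sets of Timp2 disagreed in sign. In STAT5Δ750 tumours 1460287_at stood at 0.40 ± 0.59 and 1420924_at at 0.71 ± 0.73, while 1433662_s_at stood at -0.19 ± 0.57 and 1450040_at at -0.13 ± 0.84. Over 16 arrays the correlations between the 5 Timp2 probe sets that passed the filter ran from 0.22 to 0.93, and since their differences disagree in sign no direction is given for Timp2.

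Timp3 encodes an inhibitor that stays bound to the matrix and also blocks ADAM proteases. On 1449335_at, its brightest probe set, the STAT5ca tumours had a lowest value of 169.1, a median of 484 and a highest of 888, and the STAT5Δ750 tumours had 300.2, 543 and 893, against 627, 359 and 475 on glands 1, 4 and 6. The groups overlapped, with differences of -0.09 ± 0.50 (adjusted p = 0.917) and 0.17 ± 0.51 (adjusted p = 0.847). The dimmer probe set 1419088_at stood at 0.82 ± 0.51 in STAT5ca (adjusted p = 0.269) and 1.25 ± 0.52 in STAT5Δ750 tumours (adjusted p = 0.105). With the beta-actin ratio as a covariate it passed in both, at 2.05 (adjusted p = 0.0242) and 1.99 (adjusted p = 0.00823). In STAT5Δ750 tumours it also passed with only those tumours and the glands in the model, at 1.25 (adjusted p = 0.0329), and with array weights, at 1.07 (adjusted p = 0.0222). Both of those fits called many more of all probe sets than the main model. Correlations between the 4 Timp3 probe sets were 0.60 to 0.87 over 16 arrays.

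The comparison of STAT5ca with STAT5Δ750 tumours asked whether the form of STAT5 in the transgene goes with a different set of proteases. By limma 0 of the 19 probe sets were called, beside 0% of all probe sets, and 1132 of the 15764 had an unadjusted p under 0.05. Mmp13 differed by -0.16 ± 1.06 (95% interval -2.41 to 2.08, adjusted p = 0.972) and Timp1 by -0.17 ± 0.54 (-1.30 to 0.97, adjusted p = 0.949). Mmp12 differed by -0.90 ± 0.92, with an interval of -2.84 to 1.04. The interval of Mmp11, -0.65 to 0.35, was the narrowest of the 19, while those of Mmp13 and Mmp12 were wide. The tumour groups overlapped for every member, beside 0.127% of all probe sets that were apart and higher and 0.00634% that were apart and lower in STAT5ca tumours, and the largest number of STAT5ca tumours above all STAT5Δ750 tumours was 4 of 7, for Mmp3 and for 2 Timp2 probe sets. Mmp9 turned sign without STAT5ca_177, at -0.47 ± 0.39 (adjusted p = 0.696) against 0.47 ± 0.92 with it.

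The highest and lowest tumours were few. Of the 10 genes, each taken on its probe set with the highest mean, 5 had their highest tumour signal on STAT5ca_177, 3 on STAT5Δ750_160 and 2 on STAT5ca_171. The 5 were Mmp3, Mmp9, Mmp12, Mmp13 and Timp2, the 3 were Mmp14, Timp1 and Timp3, and the 2 were Mmp2 and Mmp11. The lowest signal was on STAT5ca_169 for 5 genes (Mmp9, Mmp12, Mmp13, Timp1 and Timp2) and on STAT5ca_123 for 3 (Mmp2, Mmp3 and Mmp14). STAT5Δ750 tumours held none of the lowest values. On the array STAT5ca_169 the signal of Mmp12 was 11.3 and that of Timp2 329, both below every gland, while Timp1 at 115 was still above every gland.

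**Figure D3:**
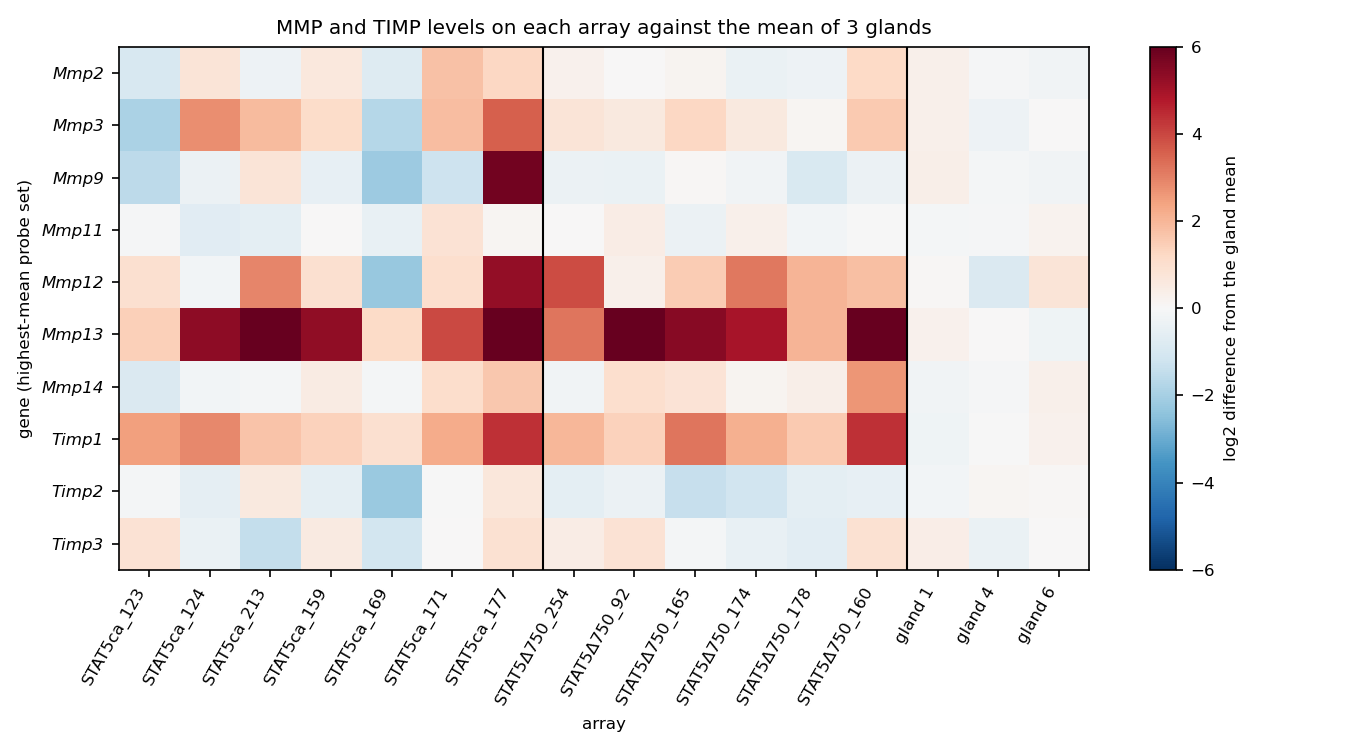
Log2 level of each gene (rows, the probe set with the highest mean) on each array (columns, STAT5ca tumours, STAT5Δ750 tumours and glands from left to right), as the difference from the mean of the 3 glands. Red is higher and blue lower, and values beyond 6 in size are drawn in the end colour. The Mmp13 and Timp1 rows are red on all 13 tumours, and Mmp3, Mmp9 and Mmp12 are red on STAT5ca_177 and blue on STAT5ca_169.

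Members were set against the mean log2 level of macrophage, fibroblast and granulocyte markers over the 13 tumours, and in 6 pairs of members, which made 36 relations with Benjamini-Hochberg adjustment over them. Mmp2 followed the 16 fibroblast markers, with Pearson r = 0.910 (permutation adjusted p = 0.00108) and Spearman rho = 0.912 (adjusted p = 0.0018). Its r was 0.915 without the pair of tumours farthest from the median, 0.899 without STAT5ca_177, 0.941 within STAT5ca and 0.978 within STAT5Δ750 tumours. Timp1 followed the 15 macrophage markers, with r = 0.799 (adjusted p = 0.00408) and rho = 0.797 (adjusted p = 0.0304). For Timp1, r was 0.729 without the farthest pair, 0.748 without STAT5ca_177, 0.878 within STAT5ca and 0.884 within STAT5Δ750 tumours. Mmp3 and Mmp13 varied together with r = 0.840 (adjusted p = 0.00408) and rho = 0.742 (adjusted p = 0.0431). That r was 0.674 without the farthest pair, 0.784 without STAT5ca_177, 0.920 within STAT5ca and 0.748 within STAT5Δ750 tumours. Mmp12 lies between Mmp13 and Mmp3 in the cluster on chromosome 9, and its relation to Mmp13 did not pass, with r = 0.499 (adjusted p = 0.156), 0.298 without STAT5ca_177, 0.817 within STAT5ca and -0.506 within STAT5Δ750 tumours. Timp1 with fibroblast markers passed in r alone, at 0.712 (adjusted p = 0.0331) with rho = 0.615 (adjusted p = 0.121), and r was 0.844 without the farthest pair and 0.619 (adjusted p = 0.113) without STAT5ca_177. Mmp3 with fibroblast markers likewise had r = 0.725 (adjusted p = 0.0304) and rho = 0.648 (adjusted p = 0.101), with r = 0.876 without the farthest pair and 0.643 (adjusted p = 0.105) without STAT5ca_177. Mmp3 with macrophage markers had r = 0.712 (adjusted p = 0.0304) and rho = 0.780 (adjusted p = 0.0304). Its r was 0.680 without the farthest pair, STAT5ca_177 and STAT5Δ750_92. Without STAT5ca_177 alone r was 0.618 (adjusted p = 0.113), so the call in r rests in part on that tumour. Within the 7 or the 6 tumours of a group no relation passed the adjustment in the exact permutation test, the smallest adjusted p of r being 0.0964 within STAT5ca and 0.125 within STAT5Δ750 tumours.

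The other relations passed in Pearson's r alone or not at all. Mmp14 with fibroblast markers had r = 0.801 (adjusted p = 0.00612) but rho = 0.687 (adjusted p = 0.0719). Mmp2 with macrophage markers had r = 0.643 (adjusted p = 0.0440) and rho = 0.709 (adjusted p = 0.0636), and r = 0.686 (adjusted p = 0.0868) without STAT5ca_177. The relation of Mmp9 to macrophage markers, r = 0.840 (adjusted p = 0.0514), was 0.280 without STAT5ca_177, and that of Mmp12, r = 0.597 (adjusted p = 0.0945), was 0.271 without it. Mmp12 and granulocyte markers had r = 0.659 (adjusted p = 0.0514), and 0.781 (adjusted p = 0.0269) without STAT5ca_177. The pair of Mmp2 and its activator Mmp14 had r = 0.694 (adjusted p = 0.0356) and rho = 0.610 (adjusted p = 0.121), and r = 0.649 (adjusted p = 0.105) without STAT5ca_177, while Mmp14 and Timp2 had r = 0.184 (adjusted p = 0.613). Mmp13 and its inhibitor Timp1 had r = 0.583 (adjusted p = 0.0936).

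**Figure D4:**
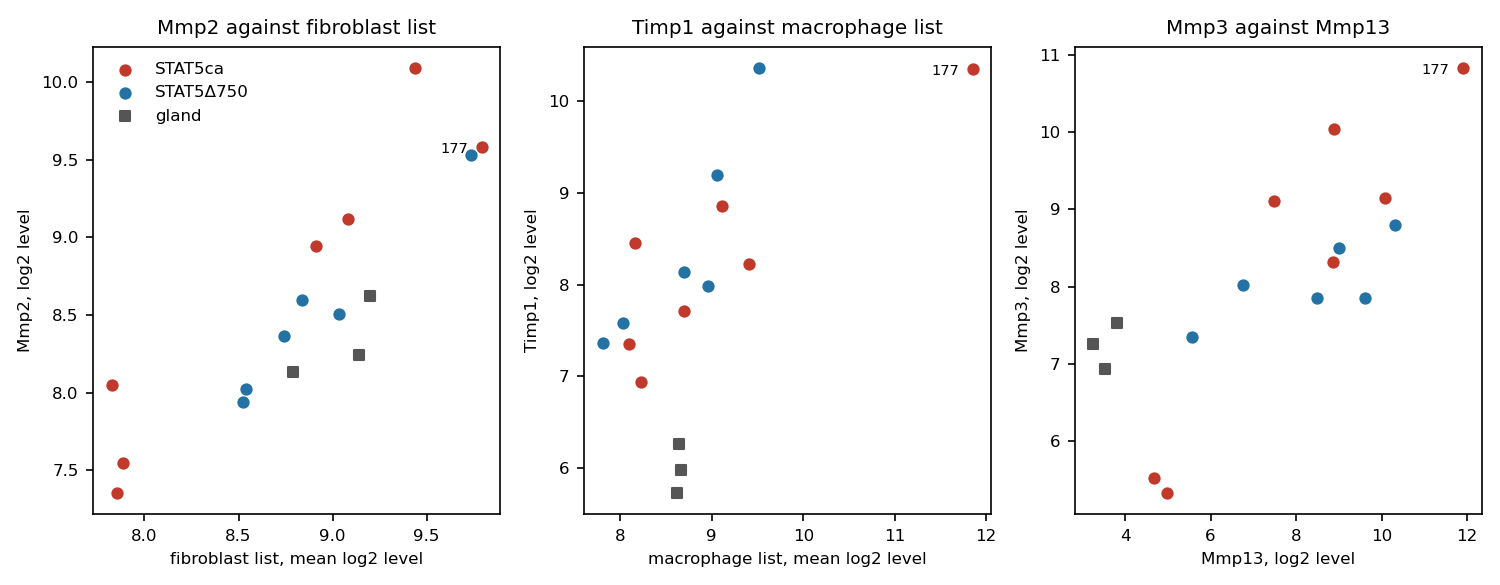
Log2 levels of Mmp2 against the mean of 16 fibroblast markers, Timp1 against the mean of 15 macrophage markers, and Mmp3 against Mmp13, with 1 point per array in STAT5ca red, STAT5Δ750 blue and gland grey. Over the 13 tumours r is 0.910, 0.799 and 0.840. STAT5ca_177, marked by its number, lies far to the right in the macrophage panel, and the glands lie below the tumours in the Timp1 panel and to their left in the Mmp13 panel.

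The genes whose pattern was most like each member were taken by Pearson r over the 13 tumours after each tumour group was centred on its mean, among all probe sets with 1 symbol. Since they are the highest of many, they are a description. For Mmp2 they were Islr (r = 0.963), Gask1b (0.933) and Mfap5 (0.921). For Mmp3 they were Dram1 (0.927), Cpxm1 (0.886) and Cab39 (0.874). For Mmp13 they were Map4 (0.927), Slc12a7 (0.901) and Qk (0.897), and Mmp3 did not count since members were left out. For Mmp12 they were Il1rn (0.936), Clec4d (0.920) and Clec4e (0.898), and for Mmp14 Olfml2b (0.902), Cdh11 (0.893) and Tmem43 (0.892). Timp1 was most like Tfpi (0.951), Adcy3 (0.950) and Rab31 (0.947), Timp2 like Myd88 (0.918), Eri1 (0.906) and Nadk (0.897), and Timp3 like Efnb2 (0.912), Map3k14 (0.781) and Anxa2 (0.766). For Mmp9 they were Mob1a (0.971), Slc12a4 (0.964) and Fpr2 (0.960), whose r within STAT5Δ750 tumours was 0.48, 0.88 and 0.06. For Mmp11 they were Mtmr3 (0.789), Sertad2 (0.787) and Lipt2 (0.759), whose r within STAT5Δ750 tumours was 0.33, 0.81 and 0.29. For the genes named with the other members, r within STAT5Δ750 tumours was lowest for Myd88 (0.56), Cab39 (0.61), Map3k14 (0.67) and Il1rn (0.69).

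Other MMPs gave low signals in most samples. Probe sets of Mmp1a, Mmp1b, Mmp8, Mmp17, Mmp19, Mmp20 and Mmp24 did not pass the filter. Mmp10, stromelysin 2, had a median of 22.7 in STAT5ca and 41.7 in STAT5Δ750 tumours, against 2.04 in glands, and STAT5ca_177 alone reached 648 where the next STAT5ca tumour had 64.1. Mmp7, matrilysin, had medians of 9.82 and 25.7 in STAT5ca and STAT5Δ750 tumours, against 3.18 in glands. Mmp16, a membrane protease, had medians of 36.9 and 79.3 against 8.89 in glands on 1437568_at, with 533 on STAT5ca_169 and 419 on STAT5Δ750_174 and at most 42.4 and 96.0 on the other tumours of each group. Mmp23 had medians of 34.8 and 46.3 against 64.4 in glands on 1417282_at. Among the inhibitors, Timp4 had medians of 8.17 and 7.88 against 113 in glands on 1423405_at, while STAT5ca_124 alone had 2464 and the other STAT5ca tumours at most 12.2. On 1450974_at, the Timp4 probe set with the highest mean log2 level, the medians lay closer, at 21.2 and 18.4 against 55.2 in glands. Reck had medians of 46.1 and 48.7 against 154 in glands, and A2m 15.7 and 26.1 against 6.98. None of these genes was called on its probe set with the highest mean. Of 8 tested genes among the other MMPs and MMP inhibitors 1 rose in each tumour group and 0 fell. It was Bsg, basigin, a surface protein known to induce MMPs in neighbouring cells, at 1.39 ± 0.25 (adjusted p = 0.00148) in STAT5ca and 1.29 ± 0.26 (adjusted p = 0.00332) in STAT5Δ750 tumours. The medians of the 8 genes were 1.11 and 1.44, against 0.28 and 0.17 over all probe sets. The filter favours such raised medians. Mmp7, Mmp10, Mmp16 (1437568_at) and A2m had highest gland signals of 7.13, 10.1, 16.5 and 13.4, below the filter of 35.4. These genes passed it through the tumours alone, so no rise of the list is read from its medians.

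Of 14 ADAM and ADAMTS genes 1 rose in each tumour group and 0 fell, Adamts7, a protease of cartilage matrix, at 1.58 ± 0.50 (adjusted p = 0.0339) and 1.61 ± 0.51 (adjusted p = 0.0375), with list medians of 0.23 and 0.10. Over all probe sets 20.8% were called in STAT5ca and 18.3% in STAT5Δ750 tumours, the background for the counts of these lists. Adamts7 was not called under 8 of the alternatives in each comparison. Its mean signal was 13.8 in glands, below the filter of 35.4, against 59.4 in STAT5ca and 74.8 in STAT5Δ750 tumours. It thus passed the filter mainly through the tumours, where it is high. Of 3 tested genes of the plasminogen system 0 were called in either comparison, with medians of 1.24 and 1.82. Of 16 cathepsins and serine proteases with their inhibitors, 2 rose in each, with medians of 0.63 and 0.46. In STAT5ca tumours these were the lysosomal proteases Ctsh at 1.32 ± 0.26 (adjusted p = 0.00255) and Ctsd at 0.83 ± 0.29 (adjusted p = 0.0485). In STAT5Δ750 tumours they were Hpn, hepsin, at 1.41 ± 0.46 (adjusted p = 0.0452) and Spint1, an inhibitor of such surface proteases, at 2.38 ± 0.80 (adjusted p = 0.0480). Ctsd, Hpn and Spint1 lost their calls under 22, 16 and 20 of the alternatives.

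Among 17 matrix proteins on which MMPs act, 4 changed in STAT5ca tumours (2 higher, 2 lower) and 2 in STAT5Δ750 tumours (1 higher, 1 lower), beside 20.8% and 18.3% of all probe sets, with medians of 0.50 and 0.57. Col1a1, the chain of type I collagen that Mmp13 cuts, rose by 2.33 ± 0.61 (adjusted p = 0.0131) and 2.12 ± 0.62 (adjusted p = 0.0269), calls lost under 3 and 4 of the alternatives. Vtn, vitronectin, stood at -1.93 ± 0.37 (adjusted p = 0.00182) and -1.80 ± 0.37 (adjusted p = 0.00396). Bgn, biglycan, rose by 1.43 ± 0.47 (adjusted p = 0.0401), and Dcn, decorin, stood at -2.22 ± 0.73 (adjusted p = 0.0421) in STAT5ca tumours, and these lost their calls under 13 and 10 alternatives. The summed signal of the 16 fibroblast markers, of which Col1a1 and Dcn are also members, was 6690.2 to 29959 in STAT5ca and 8986 to 21561 in STAT5Δ750 tumours, against 10694 to 15218 in glands. In STAT5ca tumours 1 of these markers was called higher and 3 lower, in STAT5Δ750 tumours 1 higher and 2 lower. The part of fibroblast content in the results on Mmp2 and the matrix genes was not tested beyond the relation of Mmp2 given above.

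Of 17 tested genes known to regulate MMP genes, 5 changed in STAT5ca tumours (3 higher, 2 lower) and 3 in STAT5Δ750 tumours (1 higher, 2 lower), beside the same 20.8% and 18.3%, with medians of 0.69 and 0.58. Fosl2, a Fos family member of AP-1, rose by 1.12 ± 0.33 (adjusted p = 0.0249) and 1.06 ± 0.34 (adjusted p = 0.0378), calls lost under 4 and 10 of the alternatives. Its mean signal was 19.3 in glands, below the filter of 35.4, against 53.9 in STAT5ca and 51.1 in STAT5Δ750 tumours. Fosl2 thus passed the filter mainly through the tumours, where it is high. Etv4, another gene of the list, had 1.73 in glands, so the filter also favours a raised list median. Ets1, a factor of the ETS family that is abundant in lymphocytes and endothelium, stood at -2.28 ± 0.49 (adjusted p = 0.00433) and -2.17 ± 0.51 (adjusted p = 0.00797). Csf1, the growth factor of macrophages, stood at -1.20 ± 0.25 (adjusted p = 0.00373) and -0.99 ± 0.26 (adjusted p = 0.0158). In STAT5Δ750 tumours Ets1 lost its call under 1 of the alternatives and Csf1 under 2. Cebpb, which acts in inflammation and in mammary development, rose by 0.95 ± 0.32 in STAT5ca tumours (adjusted p = 0.0442), a call lost under 18 alternatives. Beside the fall of Ets1, the summed signal of 9 T and B cell markers was 59.1 to 1529 in STAT5ca and 108 to 1699.9 in STAT5Δ750 tumours, against 2869 to 6260 in glands, and of 12 endothelial markers 675 to 2361 and 1007 to 1991, against 2815 to 3119 in glands. The part of these cells in the fall of Ets1 was not tested. Between STAT5ca and STAT5Δ750 tumours 0 genes of these lists were called.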

How the data were processed

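Total RNA was measured in 13 tumours and 3 glands. The authors deposited a linear intensity for every probe set of each array, and the submitters' processing notes name MAS5 with no version. Array medians differed 1.58-fold, so each array was scaled to the median 75.9. An offset of 7.9 was added before log2, which is percentile 20 of the deposited table. Probe sets with a deposited value above 35.4, percentile 40, on at least 3 arrays were kept, 15764 of 22690. Of all probe sets 20393 carried 1 gene symbol, 691 several and 1606 were unnamed here, and 0 symbols changed when checked against the RefSeq annotation of GRCm38.p6. Tests came from limma 3.58.1 (R 4.3.3), fitted as 1 model of 3 groups with 13 residual and 3.11 prior degrees of freedom, with two-sided p-values adjusted by Benjamini-Hochberg over all kept probe sets and a threshold of 0.05. Errors are standard errors of the model unless called SD. Calls of probe sets higher or lower depend on scaling: 2044 were higher and 1230 lower in STAT5ca tumours and 1541 and 1338 in STAT5Δ750 tumours, against 880 and 1683, and 1199 and 1740, under the deposited scaling. No array was imputed, no detection call was used, and no date or batch was given in the labels.

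Relations across tumours used Pearson's r and Spearman's rho with permutation tests, 100000 resamples over 13 tumours and exact ones within the 7 and the 6 (scipy 1.17.1, numpy 2.4.6, Python 3.11.15). The limma fit of the groups was tested on simulated data with planted differences, and the permutation tests of the relations were not. Motifs were searched on both strands of RefSeq promoter windows. Alternatives were the deposited scaling, quantile normalization, other offsets, a floor, other filters, 1 probe set per gene, a trended and robust variance fit, array quality weights, only the groups compared, the beta-actin or Gapdh 3'/5' ratio as a covariate, and leaving out arrays. The member genes, the other gene lists and the cell type markers were chosen with earlier results of these data known. All members are named. Of each other list up to 4 genes with the smallest adjusted p among those that passed are named, and for each member the 3 genes with the most similar pattern. Figures were drawn with matplotlib 3.10.9.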

Additional observations from a re-analysis of the deposited data

Results flagged for a closer look

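Both probe sets of Mmp9, gelatinase B, were far higher on the tumour STAT5ca_177 than on the other 6 STAT5ca tumours. Probe set 1416298_at had a signal of 4969.8 there and 12.1 to 150.3 on the others, and 1448291_at had 5529.8 there and 1.17 to 111 on the others. On the log2 scale the gap to the nearest tumour was 0.625 and 0.599 of the range of the group, above Dixon's critical value of 0.568 for 7 samples. These were 2 of 42 probe set and group combinations tested, where chance gives about 1 in 20. The summed signal of macrophage markers on this array was 75565, against 7050.1 to 18065 on the other STAT5ca tumours, and that of granulocyte markers 8767, against 6935 to 19243. Over the 13 tumours Mmp9 and granulocyte markers had r = 0.262 (permutation adjusted p = 0.528), and 0.612 (adjusted p = 0.114) without STAT5ca_177. Beyond the relations across tumours, the part of these cells in the Mmp9 signal was not tested.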

How the results depend on the processing

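Of 1725 member values under the alternatives, 1691 kept their direction and side of the threshold, 16 lost a call, 6 gained one, 12 turned sign while not called, and 0 reversed a call. Mmp13 was called in 27 of 32 settings in each tumour group, at 3.18 to 5.84 in STAT5ca and 3.21 to 6.07 in STAT5Δ750 tumours. Timp1 was called in 28 and 30 of 32, at 1.70 to 2.55 and 2.06 to 2.66. With an offset of 35.4 the members called higher were 1 in each tumour group. With the beta-actin covariate 1 member probe set was called in STAT5ca tumours, Timp3 1419088_at, and 1685 of all probe sets. Mmp13 and Timp1 lost their calls there. With the Gapdh ratio as a covariate Mmp13 and Timp1 kept their calls in both tumour groups. In STAT5Δ750 tumours 4 members were called with array quality weights and 4 with only the groups compared, where 4537 of all probe sets were called. Array weights called 7589 probe sets in STAT5ca and 7541 in STAT5Δ750 tumours, and 1 probe set per gene, with fewer tested, 2154 and 1823. The cause of the other changes was not tested.

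Leaving out 1 array gave 1642 to 4491 calls over all probe sets in STAT5ca and 1203 to 3821 in STAT5Δ750 tumours, and 0 to 1 between the tumour groups, with 1 without STAT5ca_123 or STAT5ca_169. Members called higher ran from 0 to 2 in both tumour groups, and lower from 0 to 0. Without gland 1, 4 or 6 they were 0, 0 and 0 in STAT5ca and 0, 0 and 1 in STAT5Δ750 tumours, beside 1666, 1642 and 1924 calls over all probe sets in STAT5ca, and 1426, 1203 and 1948 in STAT5Δ750 tumours. Of 36 relations, 5 lost their call without STAT5ca_177, 1 gained one and 2 turned sign uncalled, and under the deposited scaling 2 lost theirs. No paired analysis was possible because the numbers in the labels are not shared between groups. With 3 glands, losing 1 leaves few arrays, and signals near the offset carry little information on change.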
